A study of Mus musculus with 6 samples.

Results

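The E2F transcription factors and the retinoblastoma (RB) proteins were taken as the 10 mouse genes E2f1 to E2f6, E2f8, Rb1, Rbl1 and Rbl2, chosen by name and read from the probe sets annotated to each symbol alone. Of these 10 genes, 9 were measured, by 13 probe sets among the 20380 that stood for the 12393 genes tested. No probe set of the table used here was annotated to E2f2, which was not analysed here. The samples were 3 miR-34a samples, from 344SQ cells made to express the microRNA miR-34a inducibly, and 3 vector samples, from 344SQ cells with the control vector. 344SQ is a metastatic mouse lung cancer line with high Zeb1, and both groups come from this single line. The labels do not name the inducer or say whether the vector cells received it. They disagree on the material, since the design text and the miR-34a titles speak of tumours in mice and other fields of cultured cells.

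E2F factors bind the promoters of genes for DNA replication and cell division, mostly as dimers with a DP protein. E2F1 to E2F3 are known as activators, E2F4 and E2F5 as repressors that work with the RB-like proteins, E2F6 as a repressor that does not bind RB proteins, and E2F8, with E2F7, as an atypical repressor that needs no DP partner. RB proteins hold E2F factors in check until cyclin-dependent kinases phosphorylate them, and miR-34a, a microRNA induced by p53, is known for lowering transcripts of this circuit, with E2f3 and E2f5 among its published targets.

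The expressed microRNA is shown first because its seed decides which transcripts it can pair with. The sequences are from RefSeq (GRCm38.p6), with the seed, bases 2 to 8, in capitals. The mature miR-34b of another locus carries the same seed, GGCAGUG.
mmu-miR-34a-5p, chr4:150068473-150068494, plus strand: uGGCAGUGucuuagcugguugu
mmu-miR-34b-5p, chr9:51103610-51103632, minus strand: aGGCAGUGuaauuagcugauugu
Mature miR-34a itself was not measured on these arrays, and seed sites in the members' transcripts were not searched.

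Some facts of the whole series bear on the values below. The median intensity per array was 466.7 to 484.2, and the lowest value was 1. Vector 1 stood apart from its group: its correlation with the other vector arrays across genes was 0.969 and 0.972, against 0.992 to 0.996 between miR-34a arrays. The epithelial keratin gene Krt8 lay at the 99.9 percentile of all gene levels, Zeb1 at 74.6, and the lung lineage gene Nkx2-1 at 30.8. Markers of cell types other than cancer cells were measured in both groups. The summed intensity of 9 fibroblast genes was 33311 to 47183 in miR-34a and 11770 to 41368 in vector arrays, lowest in vector 1, with 1 gene higher and 0 lower. That of 9 macrophage genes was 24740 to 28762 in miR-34a and 12873 to 23821 in vector arrays, with 1 higher and 1 lower. For 7 mast cell genes it was 3345 to 5382 against 993 to 1357, with 4 higher, and for 5 measured neutrophil genes 2067 to 2373 against 2990 to 9690, with 1 lower. The sums of 8 T and natural killer cell genes (3829 to 4101 in miR-34a, 3704 to 3715 in vector arrays) and of 6 endothelial genes (4749 to 5128 and 3348 to 6598) had 0 genes past the test. In the same test over all genes, described below, 6.5% passed as higher and 5.25% as lower. No measured marker averaged under 50 over the arrays. The log2 difference between the 3' and 5' control probe sets of Gapdh, a sign of RNA integrity, was 0.098 to 0.125 in miR-34a and -0.054 to 0.069 in vector arrays, and that of Actb 0.54 to 0.59 and 0.34 to 0.60. In such bulk RNA, fewer cells of a type and less RNA per cell cannot be told apart. The part of these differences in the results below was not tested. The labels leave unsaid whether the replicates are separate mice or cultures. The p-values therefore rest on the spread among these 6 arrays alone, and it may be technical.

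The comparison of miR-34a with vector samples asks which members of the circuit differ when miR-34a is expressed. Lower levels passed the test in 4 of the 9 members: the repressor genes E2f8 and E2f5 and the pocket protein genes Rb1 and Rbl1. None of the 9 passed as higher. Over all genes, 5.25% passed as lower and 6.5% as higher (limma, Benjamini-Hochberg adjusted p under 0.05). All miR-34a values lay below all vector values in 5 of the 9 members, the 4 called and E2f6, against 14% of all genes. The activator genes E2f1 and E2f3, and E2f4 and Rbl2, had groups that overlapped on the brightest probe set. The median change of the 9 members was -0.30 in log2 units, and that of all genes 0.02.

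**Figure D1:**
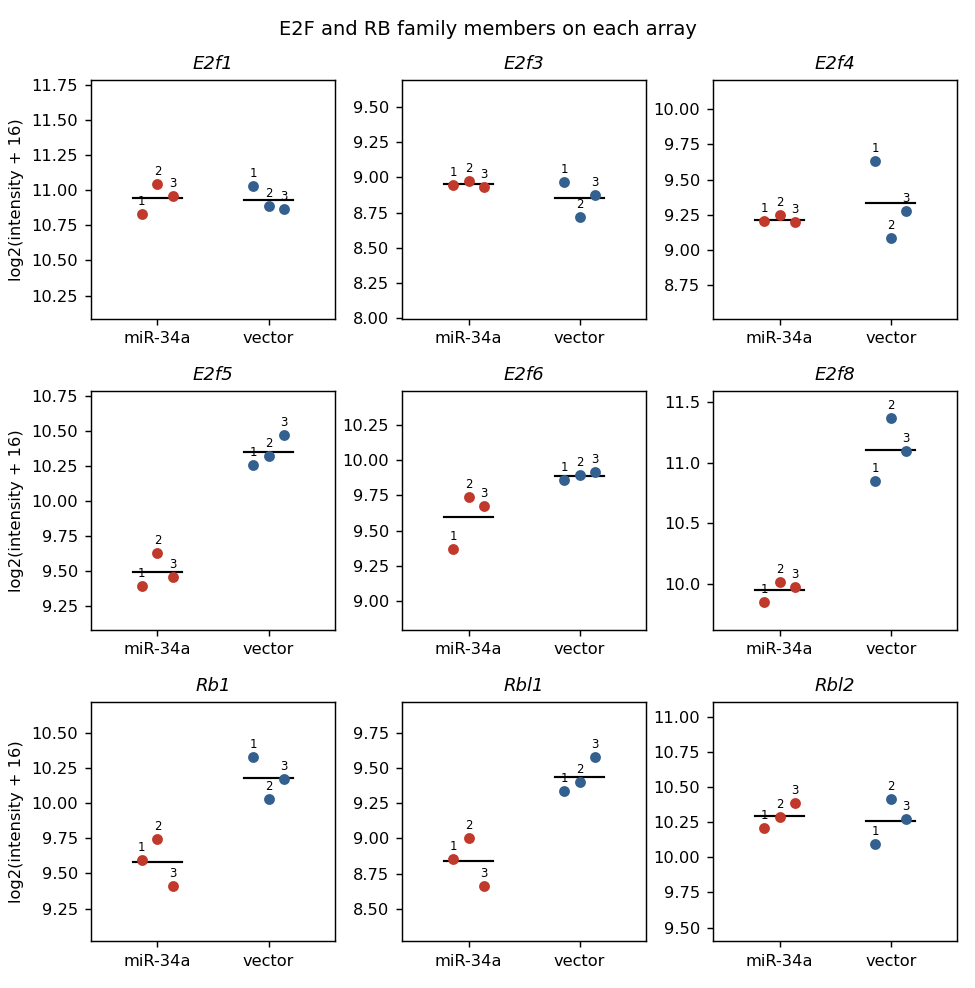
Level of the 9 measured members on each array, as log2(intensity + 16), from the probe set with the highest mean; each point is 1 array, numbered by replicate, and the line is the group mean. For E2f5, E2f6, E2f8, Rb1 and Rbl1 the 3 miR-34a points lie below the 3 vector points, and for E2f1, E2f3, E2f4 and Rbl2 the groups overlap.

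Among the repressors, E2f8 changed most. Its intensity was 906, 1016 and 992 in miR-34a samples 1 to 3, against 1822, 2619 and 2167 in vector samples 1 to 3. The highest miR-34a value was thus well below the lowest vector value, which was that of vector 1. The mean level was 9.95 ± 0.086 in miR-34a and 11.10 ± 0.26 in vector samples on the log2(intensity + 16) scale (SD, n = 3 each), a change of -1.15 ± 0.14 (SE; limma adjusted p = 0.00625), or 2.23-fold lower. E2f8 is normally made around the S phase of the cell cycle, and its product represses E2F target genes.

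E2f5, a published miR-34a target, was lower on both of its probe sets. The brighter probe set, of a type that Affymetrix marks as able to match more than 1 transcript, gave 658, 778 and 689 in miR-34a samples, against 1207, 1262 and 1403 in vector samples. The dimmer probe set gave 384, 438 and 389.9 in miR-34a samples, against 785, 804 and 929.8 in vector samples. On both, the groups lay far apart relative to their spread. The change was -0.85 ± 0.1 on the brighter (SE; limma adjusted p = 0.00615 over all genes), or 1.80-fold lower, and -1.03 ± 0.1 on the dimmer (adjusted p = 0.00275 over all probe sets), or 2.04-fold lower. Over all 20380 probe sets, 7.18% passed as lower in that second fit.

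E2f3, the other published target, did not follow E2f5. Its single probe set gave 478, 487 and 472 in miR-34a samples, against 485, 404 and 454 in vector samples. The groups overlapped, with vector 2 the lowest array, and the change was 0.10 ± 0.089 (SE; limma adjusted p = 0.533), with a 95% interval from -0.11 to 0.31. That interval leaves out a fall of the size seen for E2f5. The log2 change of E2f5 minus that of E2f3 was -0.95 (exact permutation test over arrays, two-sided, p = 0.1, which is the smallest p that 3 against 3 arrays allow). This was 1 of 5 such differences between members, chosen with the values known, and each had an exact permutation p of 0.1, also after Benjamini-Hochberg adjustment.

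The activator gene E2f1 did not pass the test on either of its probe sets. The brighter gave 1805, 2093 and 1973 in miR-34a samples, against 2077, 1879 and 1851 in vector samples, and the groups overlapped. The change was 0.015 ± 0.092 (SE; adjusted p = 0.940; 95% interval -0.20 to 0.23), and -0.07 on the dimmer probe set. E2f8 and E2f1, family members of opposite role, differed in their change by -1.17.

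E2f4, the E2F factor that dominates in resting cells, gave 574, 591 and 571 in miR-34a samples, against 779, 527 and 604 in vector samples. The high value was vector 1, and without that array the change of -0.12 ± 0.14 (SE; adjusted p = 0.642) became 0.04. E2f5 and E2f4, which share RB-like partners, differed in their change by -0.73.

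E2f6, which represses through Polycomb complexes, gave 645, 838 and 801 in miR-34a samples, against 914, 935 and 952 in vector samples. The groups did not overlap, and miR-34a 1 was the lowest array. The change of -0.30 ± 0.11 (SE; limma adjusted p = 0.132) did not pass the test, and without miR-34a 1 it was -0.19.

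The pocket proteins divided. Rb1, the retinoblastoma tumour suppressor gene, gave 758, 844 and 664 in miR-34a samples, against 1271, 1031 and 1137 in vector samples. Rbl1, which encodes the RB-like protein p107, gave 446, 496 and 389 in miR-34a samples, against 632, 660.0 and 749.8 in vector samples on its brighter probe set. In both genes the highest miR-34a array, miR-34a 2, stayed below the lowest vector array. Rb1 changed by -0.59 ± 0.12 (SE; limma adjusted p = 0.0247), or 1.51-fold lower. Rbl1 changed by -0.60 ± 0.12 (adjusted p = 0.021), or 1.52-fold lower, and its dimmer probe set by -0.53 ± 0.11 (adjusted p = 0.021 over all probe sets). Rbl2, which encodes p130, the RB-like protein of resting cells, gave 1167, 1235 and 1322 in miR-34a samples, against 1078, 1350 and 1221 in vector samples. These ranges, from the brighter probe set, overlapped, with a change of 0.03 ± 0.11 (adjusted p = 0.874; 95% interval -0.22 to 0.28). On the dimmer probe set the miR-34a values, 427, 453 and 497, lay above the vector values, 421, 417 and 401. The change there was 0.14 and did not pass (limma adjusted p = 0.325 over all probe sets). Of the 12393 genes, 4321 had groups that did not overlap in either direction. Relative to Rbl2, Rb1 differed in its change by -0.63 and Rbl1 by -0.64 (exact permutation p = 0.1 each, as above).

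**Figure D2:**
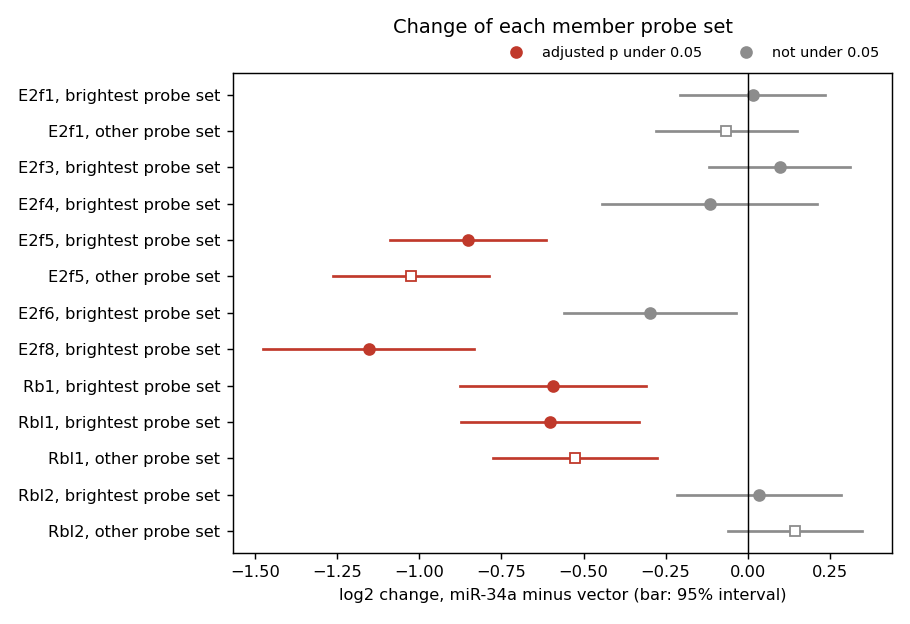
Log2 change, miR-34a minus vector, of all 13 member probe sets with 95% intervals from the fit over all probe sets; circles are the probe set with the highest mean of a gene and squares the other. The paired probe sets of E2f5 and of Rbl1 both lie below 0, and the intervals of E2f1, E2f3, E2f4 and Rbl2 include 0.

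The calls differed in how far they rested on single arrays. E2f5 and E2f8 passed in each of the 6 fits that left out 1 array, with changes from -0.92 to -0.79 and from -1.28 to -1.02. Rb1 and Rbl1 passed in 3 of these 6 fits, and neither passed without miR-34a 1, miR-34a 3 or vector 3. Their changes ran from -0.67 to -0.51 for Rb1 and from -0.68 to -0.51 for Rbl1, with adjusted p up to 0.0982 and 0.0877. Without vector 1, the array that stands apart, all 4 passed, with changes of -0.90 for E2f5, -1.28 for E2f8, -0.52 for Rb1 and -0.65 for Rbl1. In the 6 fits, calls over all genes ran from 226 without miR-34a 3 to 2133 without vector 1, against 1456 with all arrays.

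**Figure D3:**
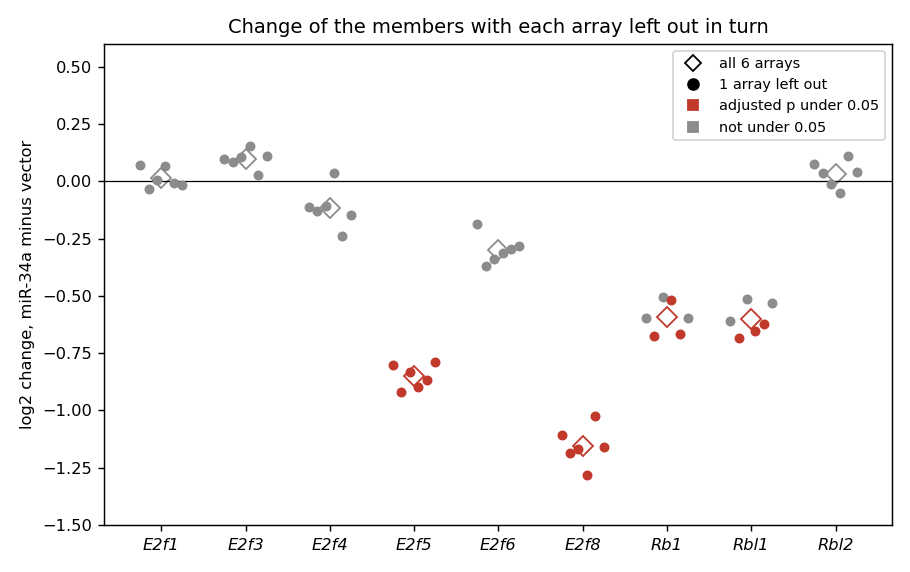
Log2 change, miR-34a minus vector, of each member with all 6 arrays (diamonds) and with each array left out in turn (dots, in the order miR-34a 1 to 3, then vector 1 to 3); red marks an adjusted p under 0.05. E2f5 and E2f8 stay red throughout, and Rb1 and Rbl1 are red in 3 of 6 dots.

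The list of E2F partners held DP subunits, E2f7, subunits of the MuvB/DREAM complex, and MYB and FOXM1 activator genes. Through DREAM, RB-like proteins and E2F4 or E2F5 repress cell cycle genes. Of the 11 genes listed 7 were measured, and 1 passed as lower and 0 as higher, against 5.25% and 6.5% of all genes. The gene that passed was Tfdp1, which encodes DP1, a main dimer partner of E2F factors. Its intensity was 2639.7, 3090.1 and 2684 in miR-34a samples, against 4309.5, 4169 and 4261 in vector samples, and the vector values lay close together. The change was -0.60 ± 0.089 (SE; limma adjusted p = 0.0107), and it did not pass without miR-34a 1 or miR-34a 3, where 0 of the 7 genes passed. Without vector 1 or vector 3, 2 of the 7 passed. Over all genes 255 and 226 passed without miR-34a 1 and miR-34a 3, and 2133 and 631 without vector 1 and vector 3. Mybl2, the B-Myb gene that joins MuvB in dividing cells, was at -0.58 (adjusted p = 0.0819), Lin9 at -0.25, the MuvB gene Lin37 at 0.30, Foxm1 at -0.23 and Rbbp4 at 0.20, and none of these passed on the brightest probe set. A second Mybl2 probe set was at -0.06. The other Rbbp4 probe sets disagreed: a dimmer one passed as higher, at 0.66 (limma adjusted p = 0.0194 over all probe sets), and another was at -0.05. Tfdp2, E2f7, Lin52 and Lin54 were not analysed here.

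The genes that E2F factors are known to drive were mostly lower. Of 50 textbook E2F target genes, 45 were measured, of which 28 passed as lower and 0 as higher, against 5.25% and 6.5% of all genes. Of the 45, 41 changed by less than 0, against 5659 of all 12393 genes. The median change of the 45 was -0.47, against 0.02 over all genes. Mad2l1, a spindle checkpoint gene, gave 1249.7, 1013 and 1205 in miR-34a samples, against 3699, 2881 and 2976 in vector samples, a change of -1.45 ± 0.13 (SE; limma adjusted p = 0.00345). Rrm2, the regulated subunit gene of ribonucleotide reductase, changed by -1.17, with its other probe sets at -0.85 and -1.32. The DNA polymerase alpha gene Pola1 changed by -1.06, the chromatin remodeller gene Hells by -1.07, the cyclin A2 gene Ccna2 by -0.89 and the checkpoint kinase gene Chek1 by -1.25. Other Chek1 probe sets ran from -1.60 to -0.09. The cyclin E genes did not pass, with Ccne2 at -0.42 (adjusted p = 0.0678) and Ccne1 at -0.28. Leaving out single arrays gave 10 to 29 target genes called lower. The count was 13 when miR-34a 1 was left out, 17 for miR-34a 2 and 10 for miR-34a 3. It was 29, 20 and 23 when vector 1, 2 and 3 were left out. Calls over all genes, 1456 with all arrays, were 255, 667 and 226 when miR-34a 1, 2 and 3 were left out. They were 2133, 1256 and 631 for vector 1, 2 and 3.

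Of the mitotic genes, which DREAM represses and B-Myb and FOXM1 activate, 18 of 19 measured passed as lower and 0 as higher. The median change was -0.68, and over all genes 5.25% passed as lower and 6.5% as higher. The proliferation marker gene Mki67 gave 1821, 1574 and 1344 in miR-34a samples, against 4067, 4154 and 3411 in vector samples, so that the lowest vector array was far above the highest miR-34a array. It changed by -1.29 ± 0.13 (SE; limma adjusted p = 0.0054). The kinase genes Ttk, Bub1 and Aurkb changed by -1.22, -1.01 and -0.92, Cenpf by -1.34 and Nusap1 by -0.76. A second probe set was at -0.04 for Cenpf, -0.31 for Bub1, -0.56 for Aurkb and -0.27 for Nusap1. Of the mitotic genes 7 passed when miR-34a 3 was left out, 10 without miR-34a 1, and 18 without vector 1. Over all genes 226, 255 and 2133 passed in these 3 fits.

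**Figure D4:**
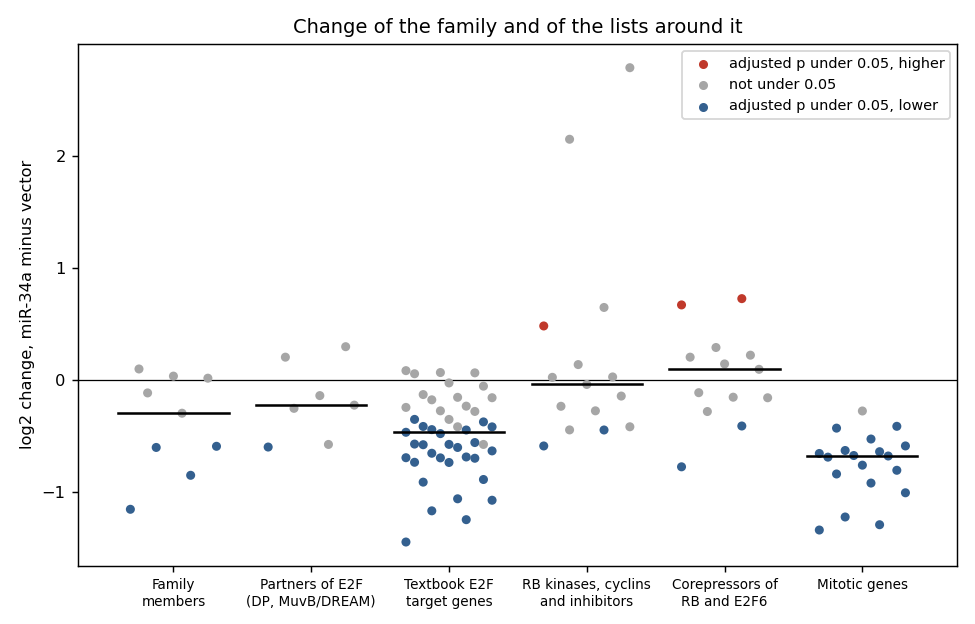
Log2 change, miR-34a minus vector, of each gene (points) in the family and in 5 lists around it; the line is the list median and colours give the call. The textbook E2F target genes and the mitotic genes lie mostly below 0, with medians of -0.47 and -0.68, while the lists of RB kinases and of corepressors have medians of -0.04 and 0.09.

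The regulators of RB phosphorylation did not move as a block. Of 15 measured genes 2 passed as lower and 1 as higher, against 5.25% and 6.5% of all genes. The median change was -0.04. Among the INK4 genes, whose products inhibit CDK4 and CDK6, Cdkn2c changed by -0.59 ± 0.092 and Cdkn2d by -0.45 ± 0.1 (SE; limma adjusted p = 0.0125 and 0.0327). The D-type cyclin gene Ccnd3 was higher, at 0.48 ± 0.1 (adjusted p = 0.0282). With an array left out, Ccnd3 and Cdkn2d each passed in 2 of the 6 fits, and Cdkn2c in 4. Neither the kinase gene Cdk4 (0.03), nor Cdk6 (-0.45), Ccnd1 (0.14) or the p21 gene Cdkn1a (-0.24) passed. The Cdk6 value turned on vector 3, which was at 587 against 361 and 316 on vector 1 and vector 2. Without vector 3 the Cdk6 change was -0.19, and with array weights it was -0.73 and passed (adjusted p = 0.0273). Array weights took the calls over all genes from 1456 to 3238. A second Cdkn1a probe set was at -0.57. Ccnd2 was at 0.65 on its brightest probe set (adjusted p = 0.0734), and its 7 probe sets ran from 0.06 to 1.03. The dimmer ones at 1.03 and 0.81 passed as higher (limma adjusted p = 0.011 and 0.0191 over all probe sets), and the rest did not. Without vector 1 the brightest probe set passed, at 0.86 (adjusted p = 0.00346). Leaving out miR-34a 1 or miR-34a 3 left 0 of the 15 genes past the test, leaving out miR-34a 2 or vector 3 left 1, and leaving out vector 1 gave 7. Over all genes, calls in these fits ran from 226 without miR-34a 3 to 2133 without vector 1.

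Cdkn2a and Cdkn2b, the remaining INK4 genes, set vector 1 apart from every other array. Cdkn2a, whose locus encodes p16INK4a and p19ARF, gave 2818, 3106 and 2739 in miR-34a samples, against 33.6, 946 and 1546 in vector samples. Cdkn2b, the p15INK4b gene, which was named after its values were seen, gave 3149, 3636 and 3227 in miR-34a samples, against 149.5, 1379.8 and 1853 in vector samples. In both genes the groups did not overlap, and vector 1 lay far below vector 2 and vector 3. Over all arrays neither passed, with changes of 2.79 ± 1.2 and 2.15 ± 0.83 (SE; adjusted p = 0.173 and 0.144). These vector means include vector 1, and the Cdkn2a change ran from 2.45 to 2.96 with pseudocounts of 64 and 1. Without vector 1 both passed, with changes of 1.24 (adjusted p = 0.00514) and 1.05 (adjusted p = 0.00326). What sets vector 1 apart at these genes was not tested, and whether the vector samples share the same genotype there was not measured.

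**Figure D5:**
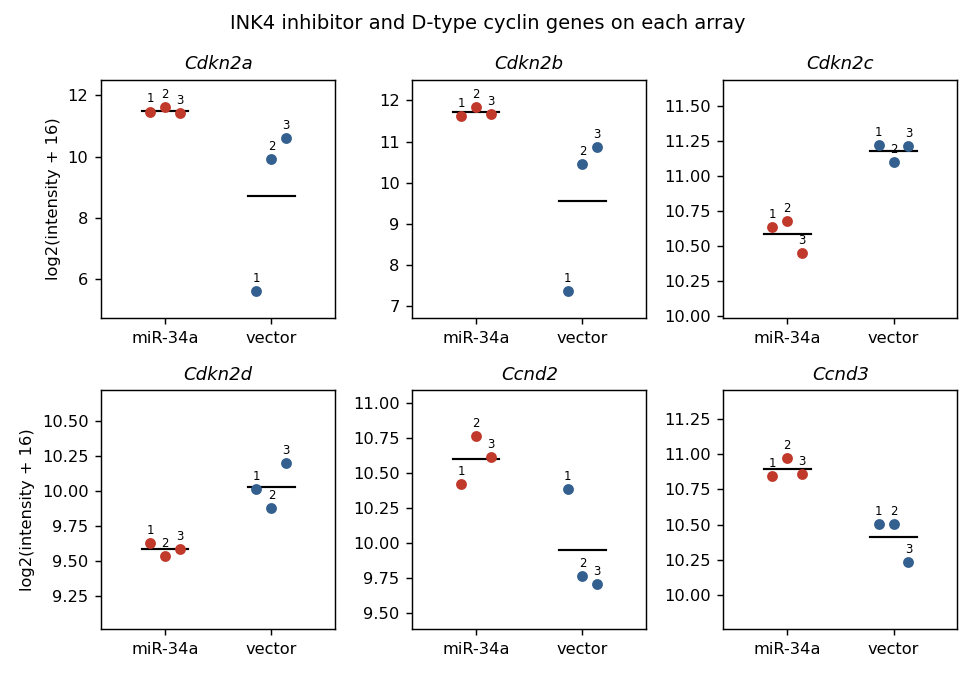
Level of the 4 INK4 inhibitor genes and of 2 D-type cyclin genes on each array, as log2(intensity + 16), with points numbered by replicate and lines at the group mean. Vector 1 is far below all other arrays for Cdkn2a and Cdkn2b, while Cdkn2c and Cdkn2d are lower and Ccnd3 higher in the miR-34a samples.

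Of 17 corepressor genes, whose products are bound by RB proteins or E2F6, 13 were measured, with a median change of 0.09. Of these, 2 passed as higher and 2 as lower, against 6.5% and 5.25% of all genes. Kdm5a, a histone demethylase gene whose product was found as an RB-binding protein, was higher, with 647, 621 and 662 in miR-34a samples, against 349, 385 and 418 in vector samples (change 0.72 ± 0.09, SE; limma adjusted p = 0.00674). The E2F6 complex gene Max was higher by 0.67 (adjusted p = 0.0188). The histone deacetylase gene Hdac2 changed by -0.78 and the RB-binding histone chaperone gene Rbbp7 by -0.41, both passing as lower. A second Rbbp7 probe set was at -0.68. Epc1 at 0.29 and Pcgf6 at -0.28 did not pass on the brightest probe set. A dimmer Pcgf6 probe set passed as lower, at -0.72 (adjusted p = 0.034 over all probe sets), and another was at -0.04. In this list 1 gene passed when miR-34a 1 or miR-34a 3 was left out, and 2 when miR-34a 2 or vector 3 was. Over all genes 255 and 226 passed without miR-34a 1 and miR-34a 3, and 667 and 631 without miR-34a 2 and vector 3. With an array left out, Kdm5a passed in 6 of 6 fits, Max and Hdac2 in 3 each and Rbbp7 in 2.

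Promoter windows from RefSeq (GRCm38.p6), 250 bases before to 50 after each start, were held for 6 of the 9 measured members, and those of E2f4, E2f5 and Rb1 were not used here. They are shown for E2f8 and Rbl1, which fell, and for E2f3, which did not, as windows with letters that E2F or DREAM is known to bind. The window of Rbl2, which did not fall, also holds such letters and is not shown. Capitals mark an E2F motif (TTTCCCGC, TTTCGCGC, TTTGCCGC, TTTGGCGC or TTCCCGCC) or the cell cycle homology region motif (TTTGAA or TTCGAA), on either strand.
E2f8, chr7:48881547-48881846, minus strand: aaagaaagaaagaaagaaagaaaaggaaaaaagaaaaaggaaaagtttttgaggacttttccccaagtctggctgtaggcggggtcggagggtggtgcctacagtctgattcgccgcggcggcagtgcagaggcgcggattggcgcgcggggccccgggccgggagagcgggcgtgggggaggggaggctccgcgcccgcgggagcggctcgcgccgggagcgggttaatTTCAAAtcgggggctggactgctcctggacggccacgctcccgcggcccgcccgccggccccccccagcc
Rbl1, chr2:157204485-157204784, minus strand: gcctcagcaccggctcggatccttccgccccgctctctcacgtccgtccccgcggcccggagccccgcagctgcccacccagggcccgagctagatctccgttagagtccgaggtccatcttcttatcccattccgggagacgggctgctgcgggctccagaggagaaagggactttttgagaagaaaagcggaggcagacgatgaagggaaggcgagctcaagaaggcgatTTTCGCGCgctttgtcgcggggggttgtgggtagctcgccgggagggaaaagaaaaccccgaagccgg
E2f3, chr13:29986014-29986313, minus strand: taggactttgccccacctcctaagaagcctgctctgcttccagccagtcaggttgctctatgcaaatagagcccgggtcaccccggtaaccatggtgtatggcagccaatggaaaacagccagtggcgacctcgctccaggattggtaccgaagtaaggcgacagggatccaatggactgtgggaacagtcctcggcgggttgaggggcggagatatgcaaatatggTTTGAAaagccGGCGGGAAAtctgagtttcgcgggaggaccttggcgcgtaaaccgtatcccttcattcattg
The E2f8 window held a cell cycle homology region motif from -20 to -15, the Rbl1 window an E2F motif from -18 to -11, and the E2f3 window both kinds. In E2f3 the motif TTTGAA lay from -23 to -18, and GGCGGGAA and GCGGGAAA, reverse complements of E2F motifs, overlapped from -12 to -4. A second E2f3 window and those of E2f1 and E2f6 held none of these letters, and that of Rbl2 held TTCAAA from -201 to -196. Part of the E2f1 window reads as protein-coding sequence of E2f1, so this window lies within the gene. The E2f1 promoter upstream of it was not searched, and whether that promoter holds E2F motifs was not tested. The 4 E2F motifs that begin with TTT were found in 2.26% of all 32851 windows and the cell cycle homology region motif in 19.2%. By gene, these E2F motifs were held by 4.07% of the genes tested that have a window, by 9.61% of those called lower and by 4% of those called higher. They were held by 17 of 38 textbook target genes and 0 of 16 mitotic genes, while the cell cycle homology region motif was held by 9 of 38 and by 13 of 16, against 17.3% of genes tested. Among the textbook target genes, 11 of the 17 with such an E2F motif passed as lower, and 12 of the 21 without. For the E2F motif TTCCCGCC, in 2.19% of all windows, 6 of the 7 with it and 17 of the 31 without passed as lower. No difference between these shares was tested. These are matches of letters in a window, and not measured binding.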

How the data were processed

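Affymetrix mouse arrays were hybridised with biotinylated cRNA from the total RNA of 6 samples, per the labels. The authors deposited 1 intensity per probe set and array on a linear scale, for 22690 probe sets, which is fewer than the named array model holds; how they were summarised and normalized is not given in the sources used here. With 3 arrays a group, the number of arrays limits the precision. The sample titles give the groups and the replicate numbers. Symbols come from the platform annotation, updated through gene identifiers with the RefSeq table of GRCm38.p6 (20364 of 20393 probe sets with a single symbol). Leaving out control probe sets left 20380 with a single symbol, and the brightest one by mean log2 stood for each of 12393 genes. Values were tested as log2(intensity + 16), a scale that understates the change of low genes, with lmFit and eBayes of limma 3.58.1 (R 4.3.3), two-sided, with Benjamini-Hochberg adjustment over all genes at 0.05; a second fit took all probe sets. Changes are miR-34a minus vector.

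The members, lists, tests and alternatives were chosen with earlier results of these data known. Named are all members, up to 6 genes per list with the smallest p, any gene called against most of its list, and Ccnd1, Cdk4, Cdk6, Cdkn1a, Cdkn2a, Ccne2, Tfdp1 and Tfdp2; Cdkn2b was added after its values were seen. Alternatives were other scalings, pseudocounts, filters, probe set rules, variance models and thresholds, the replicate block and leaving out each array. Gene lists carry no test of their own. The fit was tested on simulated data. No label says that a number marks a shared mouse, culture or day, so the main fit did not use the numbers as a block. Same-numbered arrays did not deviate together (r = -0.168, -0.0935 and -0.0812). No 2 arrays held the same values. Figures were drawn with matplotlib 3.10.9.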

Additional observations from a re-analysis of the deposited data

How the results depend on the processing

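The call count of 4 members held at 4 or 5 under quantile normalization, median centring, pseudocounts of 1 and 64, the filter that left out the lowest 25% of genes, the mean of all probe sets, the fit over all probe sets, a variance trend, array weights (where E2f6 also passed, adjusted p = 0.0467) and a threshold of 0.1. It was 2 (E2f5 and E2f8) at a threshold of 0.01 and with the replicate block, where Rb1 and Rbl1 had adjusted p of 0.0685 and 0.0688, and 2 to 4 when each array was left out. Textbook E2F target genes called lower numbered 13 at 0.01, 15 with the replicate block and 10 to 29 with an array left out, against 28 in the main fit. With an array left out, calls over all genes ran from 226 to 2133. What part the smaller number of arrays had in these counts was not tested. The block, though numbers share no stated origin, took calls over all genes from 1456 to 522. Array weights took them to 3238, and thresholds of 0.01 and 0.1 to 248 and 2422. Changes near 0 turned sign: E2f1 was at -0.0011 with median centring and -0.025 when probe sets were averaged, and Cdk4 at -0.063 with array weights. With an array left out, E2f1 ran from -0.035 to 0.072, E2f4 from -0.24 to 0.035, Rbl2 from -0.049 to 0.11, Cdkn1a from -0.41 to 0.0086 and Cdk4 from -0.054 to 0.074. None of these passed the test, and the cause was not tested. Of 144 refits of members 127 kept sign and call, as did 534 of 576 for the other named genes.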

Other observations

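Some of the genes that follow Cdkn2a and Cdkn2b in the RefSeq order were also low on vector 1; they were chosen after the values were seen. Plaa, a ubiquitin-binding protein gene, gave 999, 916 and 761 in miR-34a samples, against 93.6, 478 and 646 in vector samples. Caap1, named for a protein that modulates apoptosis, gave 219, 247 and 182 in miR-34a samples, against 28.5, 154 and 213 in vector samples. Ift74, a gene of transport within cilia, gave 180.4, 180.1 and 153 in miR-34a samples, against 34.7, 139 and 195 in vector samples. In these 3 genes vector 1 was the lowest array, and vector 2 and vector 3 lay closer to the miR-34a values. Farther along, Jun gave 964, 1259 and 1025 in miR-34a samples, against 221, 808 and 692 in vector samples, again lowest on vector 1. Between Ift74 and Jun, vector 1 was not low for Tek, with 171, 189.5 and 185 in miR-34a and 156, 148 and 153 in vector samples, nor for Eqtn, with 65.05 to 71.4 and 67.7 to 71.4. Between Cdkn2b and Caap1, Zfp352 gave 587 to 609.8 in miR-34a and 565 to 635 in vector samples, and Elavl2 204 to 263 and 267 to 274. The median intensity per array was 466.7 to 484.2. Zfp352 lay above these medians on all arrays, and Tek, Eqtn, Elavl2, Caap1 and Ift74 lay below them. Whether Tek, Eqtn, Zfp352 and Elavl2 are expressed above background in these samples was not tested. Mtap, on the other side of Cdkn2a, gave 2822, 3501 and 2785 in miR-34a samples, against 2319, 1971 and 2268 in vector samples, so that vector 1 was the highest of its group. None of Plaa, Caap1, Ift74 and Jun passed the test over all arrays (limma adjusted p = 0.175, 0.321, 0.425 and 0.161). Mtap passed as higher over all arrays, with a change of 0.47 (limma adjusted p = 0.0488). The genomic state of the 344SQ cells was not measured, and the cause was not tested.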
